A study of Mus musculus with 20 samples.

Results

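The 10 genes described here are atrophy genes and genes linked to the FoxO transcription factors in skeletal muscle: Trim63, Fbxo32, Foxo1, Foxo3, Sesn1, Sesn3, Gadd45a, Cdkn1a, Klf15 and Bnip3. They were chosen by name, with earlier results of these data known, as were the other gene lists below. Shares and medians of the 10 and of the lists, set beside those of all genes, are therefore descriptions and not tests. The 10 are among the 54532 genes in the count tables, and all 10 passed the filter on low counts in every comparison. Their transcripts were measured by RNA-seq in the plantaris, a hindlimb plantarflexor muscle, of male C57BL/6J mice aged 5 months. The mice had sham surgery or mechanical overload (MOV), in which part of the gastrocnemius and soleus was cut away so that the plantaris carried more load, and muscles were taken 10 days later. During surgery the plantaris was injected with a lentivirus, so that every library in the series comes from a virus-injected muscle. The control virus carried a scrambled sequence and the mimic virus carried miR-1a-3p, both behind a CMV promoter, which is not restricted to muscle fibres, and with a TurboGFP reporter. Sham and MOV, each with either virus, gave 4 groups of 5 libraries, named sham control, MOV control, sham mimic and MOV mimic. The left muscle of each mouse received the control virus and the right muscle the mimic virus, so the control and mimic groups are not independent sets of animals. The p-values below measure the spread between libraries.

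Muscle mass follows the balance of protein synthesis and breakdown, and FoxO transcription factors stand on the breakdown side. When insulin or IGF-1 signalling through Akt falls, FoxO proteins enter the nucleus and raise transcription of the muscle ubiquitin ligases and of autophagy genes. Trim63 encodes MuRF1 and Fbxo32 encodes atrogin-1, the ubiquitin ligases that are widely used as atrophy markers because they rise in fasting, denervation and glucocorticoid excess. Klf15 is a transcription factor that glucocorticoids induce in muscle, and Bnip3 encodes a mitochondrial protein of mitophagy. Sesn1 and Sesn3 encode sestrins, stress proteins that restrain mTORC1. Gadd45a and Cdkn1a, which encodes the cell-cycle inhibitor p21, are induced by p53 and by stress and are known to rise in denervated muscle.

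Stretches upstream of member genes are shown because they hold the motifs that textbooks give for these regulators. They were read from windows of 250 bases before to 50 bases after each gene start (RefSeq, GRCm38.p6), of which 11 belonged to 9 of the members. Capitals mark the matches. In Trim63 they are the glucocorticoid element, GAACA and TGTTC with 3 bases of any kind between them, from position -208, and the FOXO core GTAAACA read on the other strand, from position -194. In Gadd45a, Sesn1 and Cdkn1a they are p53 half-sites, which begin at position -40 in Gadd45a, at -173 before the second start of Sesn1, and at -73 and -51 in Cdkn1a. The regions, each written on the gene's own strand, are chr4:134314887-134314957 (plus strand) for Trim63, chr6:67037413-67037472 (minus strand) for Gadd45a, chr10:41887241-41887300 (plus strand) for Sesn1 and chr17:29090881-29090962 (plus strand) for Cdkn1a.
Trim63: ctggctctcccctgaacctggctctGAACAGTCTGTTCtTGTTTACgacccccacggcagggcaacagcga
Gadd45a: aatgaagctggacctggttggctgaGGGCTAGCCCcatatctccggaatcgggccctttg
Sesn1: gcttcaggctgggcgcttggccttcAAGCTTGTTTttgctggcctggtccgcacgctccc
Cdkn1a: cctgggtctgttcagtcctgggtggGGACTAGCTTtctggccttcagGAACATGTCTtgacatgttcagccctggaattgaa
Both strands of 32851 windows of the same length were searched. The FOXO core was found in 3.65% of all windows and in 2 of the 11 member windows, the second being a Sesn1 window with a match after the start. The glucocorticoid element was found in 0.0578% of all windows and in 1 of the 11, and the p53 half-site in 8.36% and in 3 of the 11. These matches describe letters in the windows and no binding was measured.

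Libraries held between 12036360 and 23056525 counts. Values are CPM, counts scaled to the TMM-normalised library size, and fold changes are from edgeR. Transcripts of mature muscle fibres (10 genes, among them Ckm, Acta1 and the adult myosins) summed to between 66332 and 184741 CPM over all libraries. MOV mimic library 4 stood apart on the first principal component, at 110.83, whereas the other MOV mimic libraries lay between -31.24 and 44.45. Both MOV libraries numbered 5 lay on the negative side with most sham libraries, at -23.66 in MOV control and -31.24 in MOV mimic. Sham control library 1 and sham mimic library 1 lay farthest on that side, at -82.38 and -78.35, whereas the other sham libraries lay between -38.95 and 5.88. Their 6 fibroblast markers summed to 932.9 and 1377 CPM, against 4158 to 10341 CPM in the other sham libraries, and each held the highest Fbxo32, Trim63 and Klf15 values of its group. The part of these markers in those values was not tested. Because of the positions of the MOV libraries, the counts given first below were also obtained without the MOV libraries numbered 5, a choice made after the data were seen. MOV mimic library 4, which held the fewest counts, was left out only on its own. In each comparison that used it, edgeR then called 0 genes.

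**Figure D1:**
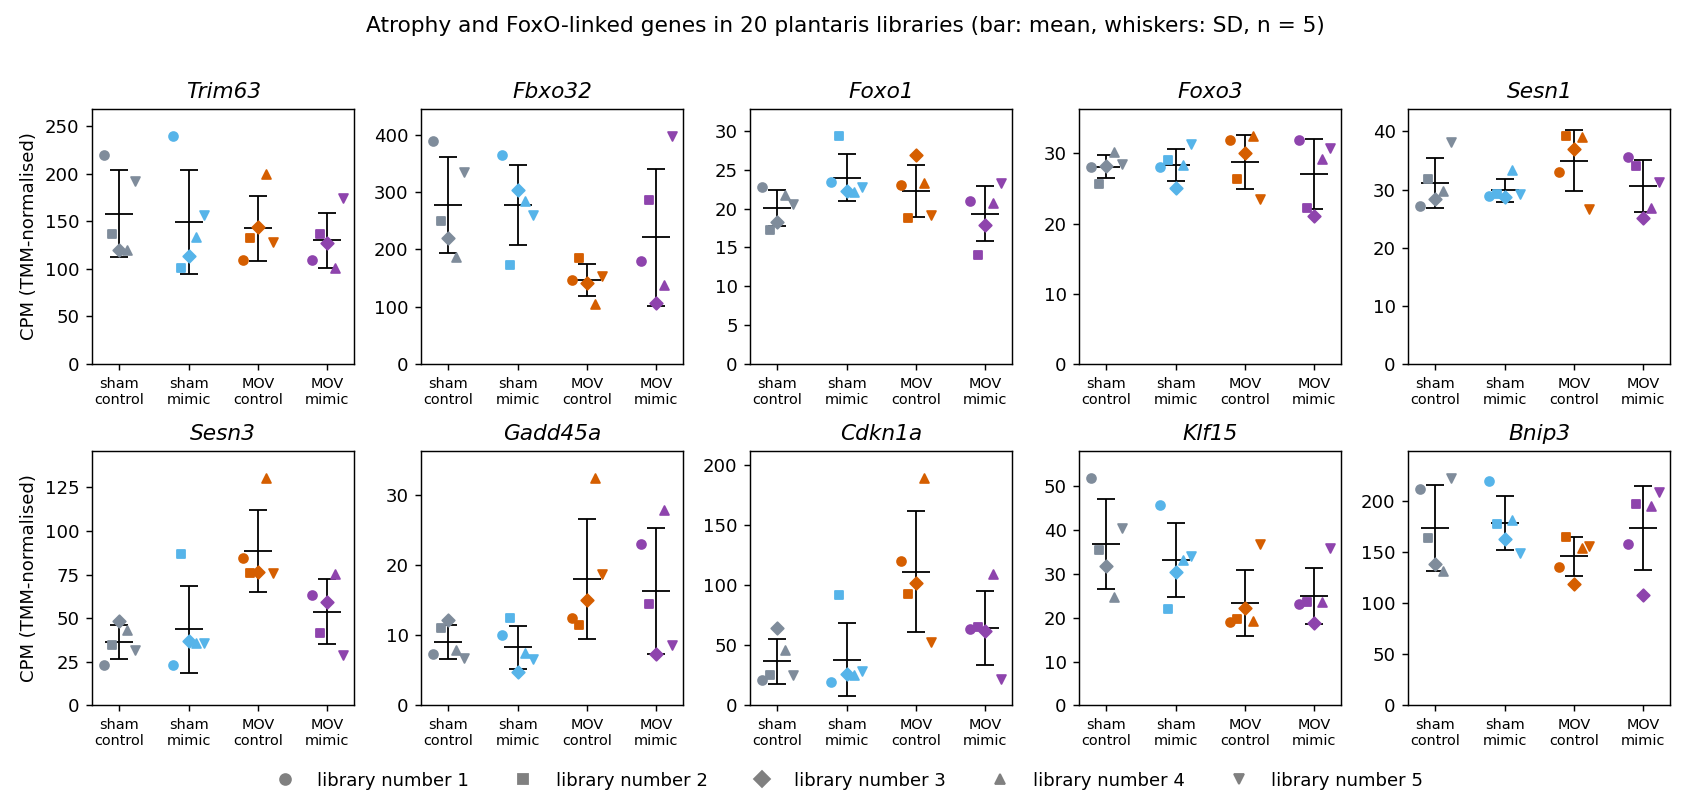
Expression of the 10 genes in CPM (vertical axis from 0) in the 4 groups, with 1 point per library, the symbol giving the library number, and bars for the mean and SD of 5 libraries. Sesn3 in MOV control, between 75.8 and 130.4 CPM, lay above all sham control libraries, and Fbxo32 in MOV control, between 105.2 and 184.1 CPM, lay below all of them.

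Per kilobase of exon, which allows levels of different genes to be compared, Fbxo32 was the most abundant member in sham control muscle at 101.6 ± 30.8 CPM per kb (SD, n = 5). Bnip3 followed at 76.7 ± 18.5 and Trim63 at 55.5 ± 16.1 CPM per kb, and the ranges of the 5 libraries overlapped between each of these and the next. A middle group was formed by Sesn3 at 16.8 ± 4.53, Cdkn1a at 16.5 ± 8.31 and Klf15 at 14.6 ± 4.03 CPM per kb, which also overlapped, and Klf15 overlapped with Sesn1 at 9.34 ± 1.30 CPM per kb. Gadd45a reached 5.13 ± 1.37, Foxo3 3.90 ± 0.23 and Foxo1 3.63 ± 0.42 CPM per kb, so the transcription factors that name the pathway had the lowest means of the set, with Gadd45a overlapping them. The lowest Trim63 library, at 42.1 CPM per kb, lay above the highest Cdkn1a library, at 29.05.

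The comparison of MOV control with sham control asks what 10 days of overload did in muscles that received the control virus. Sesn3, Cdkn1a and Gadd45a were higher in MOV control, by 2.45, 3.05 and 1.99 times, and Fbxo32 and Klf15 were lower, at 0.532 and 0.639 times the sham level. Trim63, Foxo1, Foxo3, Sesn1 and Bnip3 differed by less than 0.25 on the log2 scale. None of the 10 reached an adjusted p under 0.05 in edgeR's quasi-likelihood test, in which 0.00668% of the 14974 genes tested did so, a single gene, Nos1. An unadjusted p under 0.05 was reached by 5 of the 10, and by 18.2% of all genes tested. The median log2 fold change of the 10 was 0.10, against 0.04 over all genes.

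The ubiquitin ligases gave unlike values, although the difference between them was not tested. In libraries 1 to 5, Fbxo32 stood at 389.4, 249.7, 220.4, 187.5 and 335.7 CPM in sham control. The same gene stood at 146.4, 184.1, 141.6, 105.2 and 154.3 CPM in MOV control. Every MOV control library was below every sham control library, although the closest pair, 184.1 and 187.5 CPM, differed by little. Such separation of groups was seen in 4.89% of all genes tested. Fbxo32 had a log2 fold change of -0.91 ± 0.21 (SE) with an adjusted p of 0.0630 in edgeR, and -0.76 without sham control library 1 (adjusted p = 0.123). Trim63 stood at 220.1, 136.8, 120.1, 119.6 and 191.9 CPM in sham control and at 109.7, 132.4, 143.7, 199.4 and 128.2 CPM in MOV control. Its groups overlapped almost fully, and the log2 difference was -0.14 with a 95% interval from -0.59 to 0.31 (adjusted p = 0.769 in edgeR), and 0.0105 without sham control library 1. In bulk muscle RNA, fewer cells of a type and less RNA per cell cannot be told apart.

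Klf15 had a mean of 36.9 ± 10.2 CPM in sham control and of 23.5 ± 7.57 CPM in MOV control (SD, n = 5). MOV control libraries 1 to 4 lay between 19.1 and 22.3 CPM, below every sham control library, and library 5 lay at 36.8 CPM, inside the sham range of 24.8 to 51.9. The log2 fold change was -0.65 ± 0.23 (SE), with an adjusted p of 0.157 by edgeR. Without MOV control library 5 it was -0.87, and without sham control library 1 it was -0.50. Bnip3 had a mean of 173.6 ± 42.0 CPM in sham control and 146.0 ± 18.7 CPM in MOV control, with overlapping libraries and a log2 difference of -0.24 (95% interval -0.61 to 0.12).

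Of the sestrins, Sesn3 had the larger difference. It stood at 23.3, 34.5, 48.3, 43.3 and 32.0 CPM in sham control libraries 1 to 5 and at 84.6, 75.8, 76.6, 130.4 and 75.8 CPM in MOV control. All 5 MOV control libraries, the lowest at 75.8 CPM, were above all sham control libraries, the highest at 48.3 CPM. The log2 fold change was 1.29 ± 0.21 (SE), the adjusted p was 0.0551 in edgeR, and the gene ranked 7 by p of all 14974. Sesn1 had means of 31.1 ± 4.34 CPM in sham control and 34.9 ± 5.23 CPM in MOV control, a log2 difference of 0.18 with a 95% interval from -0.13 to 0.48.

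Cdkn1a stood at 21.5, 25.1, 64.6, 46.5 and 25.4 CPM in sham control libraries 1 to 5. In MOV control it stood at 120.1, 92.4, 101.4, 189.0 and 52.7 CPM. MOV control libraries 1 to 4 were all above the highest sham control library, and MOV control library 5 lay inside the sham range. Cdkn1a had a log2 fold change of 1.61 ± 0.36 (SE) and an adjusted p of 0.0630 in edgeR. Gadd45a stood at 7.4, 11.1, 12.2, 7.9 and 6.7 CPM in sham control and at 12.5, 11.4, 14.999, 32.4 and 18.6 CPM in MOV control. The lowest MOV control library lay inside the sham range, and the log2 fold change was 0.99 ± 0.29 (adjusted p = 0.106 in edgeR), and 0.65 without MOV control library 4.

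The transcription factors themselves varied little. Foxo1 had means of 20.1 ± 2.33 CPM in sham control and 22.3 ± 3.38 CPM in MOV control, and Foxo3 of 28.1 ± 1.63 and 28.8 ± 3.82 CPM (SD, n = 5). The log2 differences were 0.15 for Foxo1 (95% interval -0.15 to 0.46) and 0.043 for Foxo3 (-0.22 to 0.31). The coefficient of variation among sham control libraries was 5.81% for Foxo3 and 11.6% for Foxo1, against 50.4% for Cdkn1a.

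These calls depended on the test. DESeq2, the tool of the study, called 6.1% of the same 14974 genes and 4 of the 10 members: Sesn3 (adjusted p = 2.94e-05), Cdkn1a (0.000787) and Gadd45a (0.0305) higher, and Fbxo32 (0.00220) lower. limma voom with quality weights called 6.32% of genes and Sesn3, Cdkn1a, Fbxo32 and Klf15. In edgeR, 3 members passed when sham control library 3 was left out (Sesn3, Cdkn1a and Fbxo32, among 426 genes, 2.81% of those tested), and 3 passed when MOV control library 5 was left out (Sesn3, Cdkn1a and Klf15, among 318 genes, 2.08%). Leaving out any of the other 8 libraries gave no member called.

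**Figure D2:**
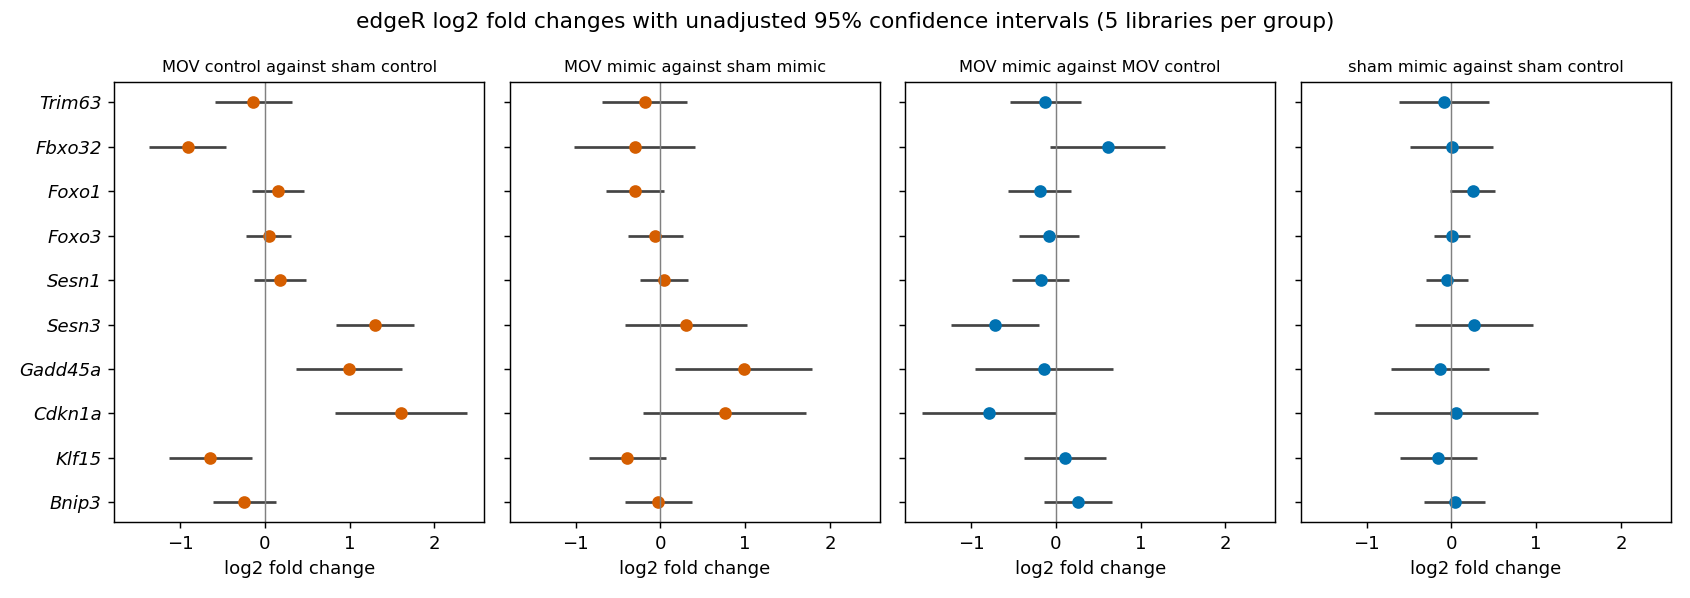
Log2 fold changes of the 10 genes (horizontal axis) from edgeR with unadjusted 95% confidence intervals, for the overload comparisons (orange) and the virus comparisons (blue), 5 libraries per group. The intervals of Sesn3, Cdkn1a, Gadd45a, Fbxo32 and Klf15 exclude 0 in MOV control against sham control, and in sham mimic against sham control all 10 intervals include 0.

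The comparison of MOV mimic with sham mimic asks the same of muscles that received the miR-1 mimic. Gadd45a was again higher, at 1.98 times the sham mimic level, whereas the differences of Sesn3, at 1.23 times, and of Fbxo32, at 0.810 times, lay within the spread of the libraries. No gene had an adjusted p under 0.05 in edgeR (0% of 14918 genes, with DESeq2 calling 1.48%), and neither tool called a member, nor did limma voom, which called 0.114% of genes. Without MOV mimic library 5, edgeR called 101 genes (0.659% of those tested) and no member, and without sham mimic library 2 it called 0. An unadjusted p under 0.05 was reached by 1 of the 10, Gadd45a, and by 13.4% of all genes. In none of the 10 were the groups free of overlap, as they were in 2.73% of all genes. The median log2 fold change of the 10 was -0.04, against 0.02 over all genes.

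Gadd45a stood at 10.0, 12.5, 4.8, 7.4 and 6.7 CPM in sham mimic libraries 1 to 5 and at 23.0, 14.4, 7.4, 27.8 and 8.6 CPM in MOV mimic. Libraries 1, 2 and 4 of MOV mimic were above the whole sham mimic range and libraries 3 and 5 lay inside it. The log2 fold change was 0.98 ± 0.37 (SE, adjusted p = 0.316 in edgeR). Cdkn1a stood at 19.7, 91.5, 25.8, 25.1 and 28.6 CPM in sham mimic. In MOV mimic it stood at 63.7, 65.3, 61.7, 108.8 and 21.8 CPM. MOV mimic library 5 was as low as the sham libraries, and sham mimic library 2 was as high as most MOV libraries. Its log2 fold change was 0.76 ± 0.45, 1.37 without sham mimic library 2 and 0.48 without MOV mimic library 4.

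Sesn3 showed the same exceptions. It stood at 22.9, 87.0, 37.0, 35.9 and 36.0 CPM in sham mimic and at 63.1, 41.7, 59.5, 75.6 and 28.6 CPM in MOV mimic. Its log2 fold change was 0.30 ± 0.33 (SE), and 0.70 without sham mimic library 2. Fbxo32 stood at 364.3, 172.7, 303.4, 284.1 and 259.7 CPM in sham mimic and at 179.7, 286.6, 105.5, 137.6 and 397.0 CPM in MOV mimic. MOV mimic library 5 held the highest Fbxo32 value of the series, and the log2 fold change of -0.30 ± 0.33 became -0.64 without it, -0.20 without sham mimic library 1 and -0.12 without MOV mimic library 3. Without sham mimic library 1, Sesn3 was at 0.13, Klf15 at -0.26 and Trim63 at 0.0398. Klf15 gave -0.39 (95% interval -0.84 to 0.07), Foxo1 -0.30 (-0.64 to 0.05) and Trim63 -0.18 (-0.68 to 0.32). The other 3 members, Foxo3, Sesn1 and Bnip3, lay between -0.059 and 0.045.

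The comparison of MOV mimic with MOV control asks what the mimic changed in overloaded muscle. It shares its MOV control libraries with the first comparison and its MOV mimic libraries with the second. Sesn3 was lower in MOV mimic, at 0.607 times the MOV control level, and Cdkn1a stood at 0.579 times and Fbxo32 at 1.53 times. Without a replicate block, no gene passed in edgeR (0% of 15220), DESeq2 called 0.0197% of genes and no member, and edgeR gave an unadjusted p under 0.05 to 1 of the 10 and to 4.21% of all genes. With a block, which joins libraries of equal number, the call depended on the tool. DESeq2 then called 0.834% of genes, among them Sesn3 (adjusted p = 0.00439) and Cdkn1a (4.45e-05), whereas edgeR called none. The highest MOV mimic library for Sesn3, at 75.6 CPM, was just below the lowest MOV control library, at 75.8 CPM, so the groups did not overlap, as in 0.762% of all genes tested. The log2 fold change of Sesn3 was -0.72 ± 0.24 (SE), with an unadjusted p of 0.0104 and an adjusted p of 0.999 in edgeR. For Cdkn1a it was -0.79 ± 0.37 and for Fbxo32 0.61 ± 0.31, and in both the libraries overlapped. Without MOV control library 4 the Cdkn1a value was -0.51 and the Sesn3 value -0.54. Without MOV mimic library 4 these were -1.06 and -0.87. The Fbxo32 value was 0.28 without MOV mimic library 5 and 0.79 without MOV mimic library 3. The remaining 7 members differed by less than 0.27, and the median of the 10 was -0.13 against -0.01 over all genes.

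The comparison of sham mimic with sham control asks what the mimic changed without overload. The 10 genes differed by between -0.15 (Klf15) and 0.27 (Sesn3) on the log2 scale, with a median of 0.01, against 0.00 over all genes. No gene passed in edgeR or DESeq2 (0% of 14746), and an unadjusted p under 0.05 was reached by 0 of the 10 and by 1.72% of all genes. The groups overlapped in all 10, and did not in 0.339% of all genes. Foxo1 had the smallest unadjusted p of the 10, 0.0604, with means of 20.1 ± 2.33 CPM in sham control and 23.99 ± 3.02 CPM in sham mimic (SD, n = 5). The depth and spread leave room for differences, since the 95% interval of Cdkn1a ran from -0.91 to 1.02, while that of Foxo3 ran from -0.20 to 0.22.

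The interaction of surgery and virus tests whether the overload difference itself differed between the viruses, over all 20 libraries. No gene passed in edgeR (0% of 16166), DESeq2 called 0.00619% of genes and no member, and in edgeR 2.64% of genes and 2 of the 10 had an unadjusted p under 0.05. For Sesn3 the overload difference with the mimic minus that with the control virus was -0.99 ± 0.43 on the log2 scale (SE, unadjusted p = 0.0295, adjusted p = 1.00). That of Foxo1 differed by -0.45 ± 0.21 (unadjusted p = 0.0383, adjusted p = 1.00), since Foxo1 was slightly higher in MOV control than in sham control and slightly lower in MOV mimic than in sham mimic. Cdkn1a gave -0.85 with a 95% interval from -2.13 to 0.44, and Gadd45a gave -0.011 with an interval from -1.06 to 1.03. Without sham mimic library 2 the value of Sesn3 was -0.59 and that of Cdkn1a -0.23. A different overload response with the mimic was thus not shown for any of the 10.

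**Figure D3:**
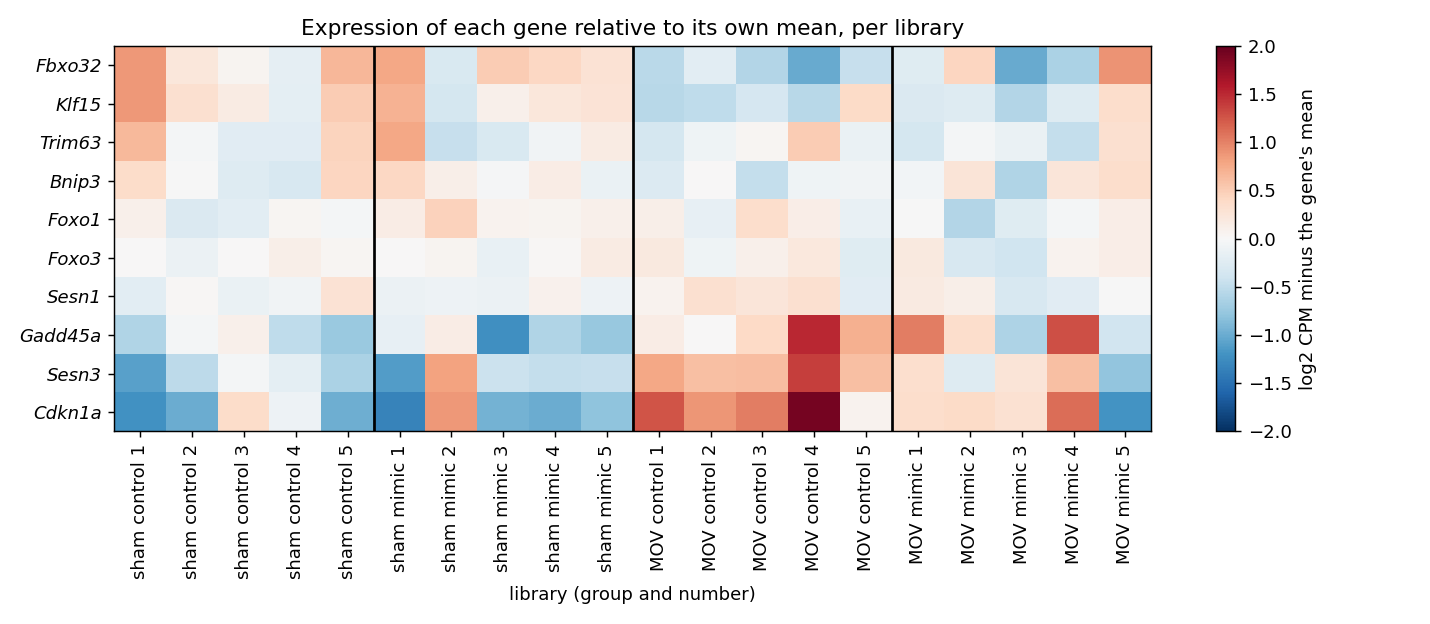
Each gene's log2 CPM minus its mean over 20 libraries (colour, red above and blue below the mean), with 1 column per library and black lines between groups. Cdkn1a and Sesn3 are red and Fbxo32 blue in MOV control libraries 1 to 4, in MOV mimic libraries 1, 3 and 4 and in sham mimic library 2. The reverse holds in MOV mimic library 5, as in most sham libraries.

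Within groups the members varied in opposing sets. After the mean of each group was taken off, Sesn3 and Cdkn1a had a Pearson correlation of log2 CPM of 0.91 over 20 libraries (Spearman 0.81, and 0.84 without the 2 libraries farthest from the median). Fbxo32 ran against Sesn3, with Pearson -0.86, Spearman -0.91 and -0.90 without the 2 farthest libraries. Klf15 ran against Cdkn1a, with -0.81, -0.84 and -0.73, and with Fbxo32, with 0.73, 0.69 and 0.65. Foxo1 and Foxo3 varied together, with 0.70, 0.68 and 0.69. Of the 45 pairs, 10 had a Pearson correlation above 0.5 and 6 one below -0.5. No p is given for these values, because the libraries of a mouse share an animal and all genes of a library share its depth and composition.

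**Figure D4:**
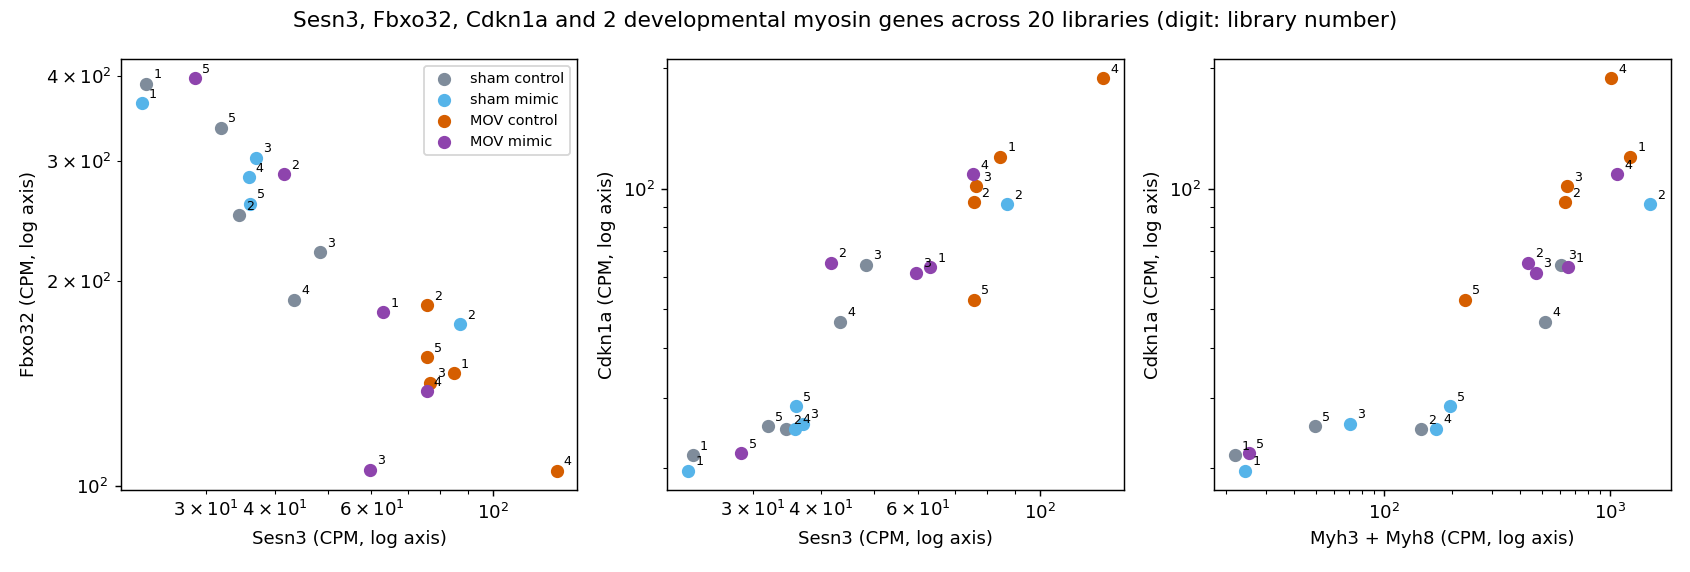
Fbxo32 and Cdkn1a against Sesn3, and Cdkn1a against the sum of Myh3 and Myh8, in CPM on log axes, with 1 point per library, coloured by group and numbered. Sham mimic library 2 lies near the MOV control libraries and MOV mimic library 5 among the sham libraries in all 3 panels.

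The myosins of developing and regenerating fibres moved with these sets. The summed level of Myh3, the embryonic myosin heavy chain, and Myh8, the neonatal one, ranged from 21.8 to 605.2 CPM in sham control, from 24.1 to 1499.7 in sham mimic, from 226.8 to 1230.4 in MOV control and from 25.2 to 1072.8 in MOV mimic. The 1499.7 CPM belonged to sham mimic library 2, the 25.2 CPM to MOV mimic library 5 and the 226.8 CPM to MOV control library 5. Within groups, the log2 sum had a Pearson correlation of 0.91 with Cdkn1a, 0.89 with Sesn3, -0.86 with Klf15, -0.80 with Fbxo32 and -0.74 with Trim63 (20 libraries; Spearman 0.94, 0.87, -0.79, -0.82 and -0.71). Its correlation was -0.01 with Foxo1 and 0.12 with Foxo3. The 5 satellite cell and myoblast markers summed to between 40.1 and 77.2 CPM in sham control and between 72.9 and 147.6 CPM in MOV control, and correlated with Gadd45a at 0.71 and with Cdkn1a at 0.70. Klf15 correlated at 0.79 with the 4 Schwann cell markers (Spearman 0.57) and at -0.75 with the 4 markers of cycling cells (Spearman -0.60). Cdkn1a correlated with the Schwann cell markers at -0.71 (Spearman -0.73). MOV control library 5, which was high in Klf15, held 82.2 CPM of the Schwann cell markers, where the other MOV control libraries lay between 11.6 and 18.1. The part of these markers in the differences of Sesn3, Cdkn1a, Gadd45a, Fbxo32 and Klf15 was not tested. The 5 endothelial markers summed to between 241.3 and 316.7 CPM in sham control, 276.7 and 385.6 in sham mimic, 142.0 and 296.5 in MOV control and 205.5 and 249.4 in MOV mimic, and 2 of the 5 in the control comparison of MOV with sham and 4 of the 5 in the mimic one were lower with an unadjusted p under 0.05. DESeq2 called Kdr lower in the first (-0.81, adjusted p = 0.00804) and Cdh5 in the second (-0.66, 0.0104). It also called the adult fast myosin Myh4 lower in the first (-1.60, 2.46e-06) and the satellite cell marker Pax7 higher (1.16, 0.00369). The 3 adipocyte markers had log2 fold changes below 0 in both comparisons of MOV with sham (medians -1.65 and -1.40, 1 of 3 with an unadjusted p under 0.05 in each), and summed to at most 19.4 CPM in any library. The part of these genes in the differences between MOV and sham was not tested either. The 11 leukocyte markers summed to between 257.6 and 1035.2 CPM in sham control and between 255.9 and 882.5 CPM in MOV control, and to between 259.4 and 950.9 CPM in sham mimic and between 493.0 and 1024 CPM in MOV mimic. Of these markers 10 were tested. All 10 had log2 fold changes above 0 in MOV mimic against MOV control (median 0.50, 3 with an unadjusted p under 0.05 and none called in edgeR) and in the interaction (median 0.78, 2 and none). In MOV mimic against sham mimic 9 were above 0 (median 0.53, 4 and none), and in MOV control against sham control 2 were (median -0.34, 0 and none). The part of the leukocyte markers in the differences of the members between the viruses, or between MOV mimic and sham mimic, was not tested. The within-group correlation of the log2 sum of these markers was 0.17 with Sesn3, 0.22 with Cdkn1a and -0.18 with Fbxo32.

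By the same within-group measure, the genes most like each member among 14706 with a symbol were Pik3ip1 (0.94) and Crim1 (0.93) for Fbxo32 and Stk40 (0.90) and Zfp651 (0.89) for Trim63. For Sesn3 they were Tmem158 (0.96) and Rras (0.95), and for Cdkn1a Casq2 (0.93) and Nlrc3 (0.93). Klf15 was most like Rab2a and 2310065F04Rik (both 0.91), Bnip3 most like Atf2 (0.90) and Eif1ad (0.85), and Gadd45a most like Trim11 and Olfr1033 (both 0.83). For Foxo1, Foxo3 and Sesn1 the closest genes were Ampd3 (0.79), Klf10 (0.77) and 9430025C20Rik (0.78), and the second ones Gata2 (0.79), Rbks (0.76) and Gm5665 (0.77). All values are Pearson correlations over 20 libraries that share depth and composition.

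**Figure D5:**
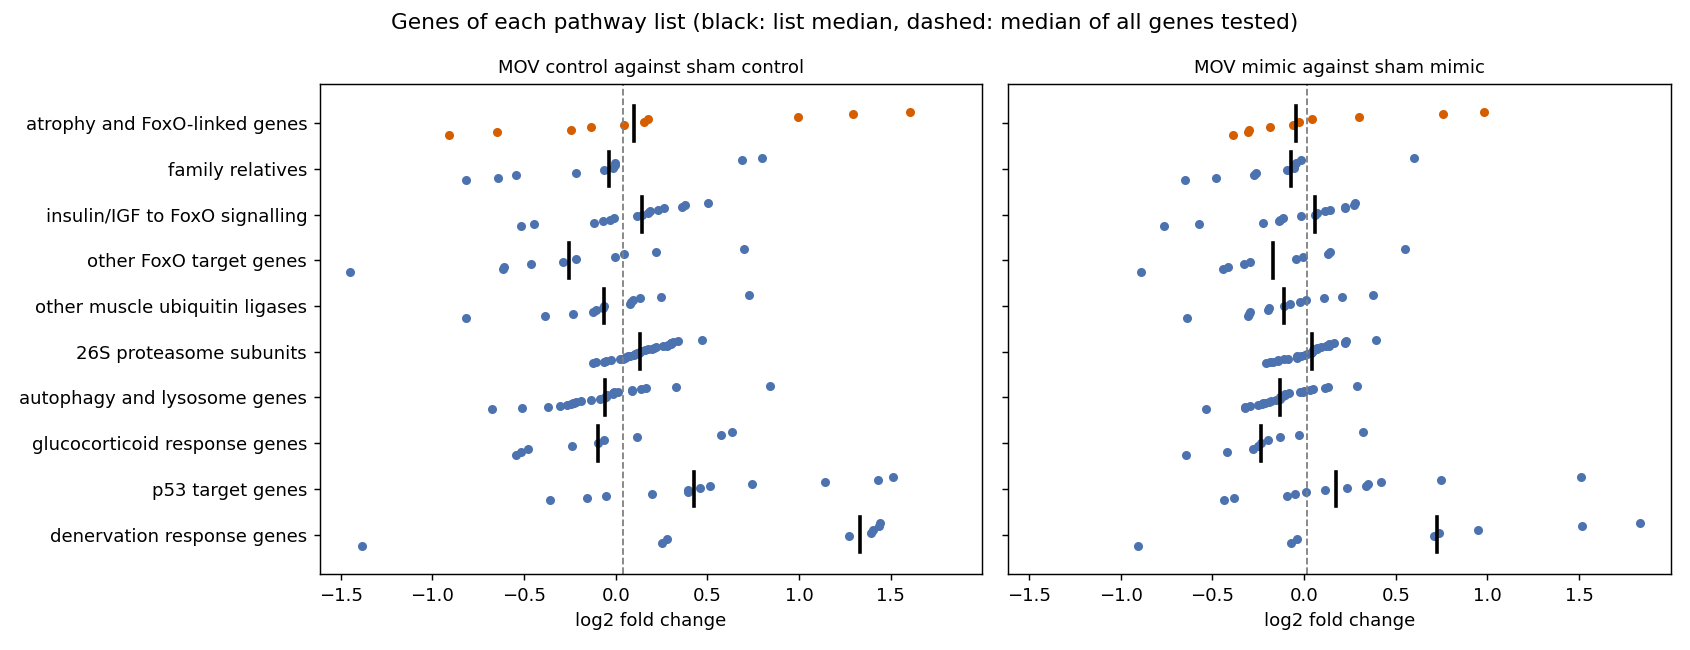
Log2 fold changes (horizontal axis) of single genes (points) in 10 lists, with list medians (black) and the median of all genes tested (dashed), for MOV control against sham control and MOV mimic against sham mimic. The denervation list has the highest median in both, 1.33 and 0.72, and the medians of the proteasome and autophagy lists lie within 0.15 of the median of all genes.

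The other genes of these pathways were grouped in 9 lists, and edgeR called no gene of any list in the comparisons of MOV with sham. Genes are named below where DESeq2 called them in MOV control against sham control, which was decided after their values were seen, and log2 fold changes are edgeR's. Of 10 other FoxO target genes, 7 were below 0, with a median of -0.25. Txnip, which restrains glucose uptake, was at -1.45, the mitochondrial superoxide dismutase Sod2 at -0.61 and the retinoblastoma relative Rbl2 at -0.61. Of 13 other muscle ubiquitin ligases tested, 6 were above 0, with a median of -0.06, and Asb2, a subunit of a cullin ligase, was at -0.82. Of 31 subunits of the 26S proteasome 26 were above 0, but by little, with a median of 0.13 and Psmd13 at 0.47. The median of 26 autophagy and lysosome genes was -0.06, with Map1lc3a, which encodes an LC3 protein of the autophagosome, at 0.84. Among 10 relatives of the members the median was -0.04, with the MuRF-family gene Trim54 at -0.64.

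Targets of p53 lay mostly above 0, 9 of 12, with a median of 0.43. Eda2r, a receptor of the TNF family, was at 1.43, the pro-apoptotic Bbc3 at 1.14 and the RNA-binding Zmat3 at 0.51. Of 8 denervation response genes 7 were above 0, with a median of 1.33, and the eighth, the transcriptional cofactor Dach2, was at -1.38 (unadjusted p under 0.05 in edgeR, not called by DESeq2 without a replicate block). The acetylcholine receptor subunit Chrna1 was at 1.27, the neural cell adhesion molecule Ncam1 at 1.44 and the transcription factor Runx1 at 1.44. The lists for insulin and IGF signalling (15 genes, median 0.14) and for glucocorticoid response (9 tested, median -0.09) held no gene that DESeq2 called. With the mimic virus, in MOV mimic against sham mimic, 5 of the 8 denervation response genes were above 0, with a median of 0.72. The p53 targets had 8 of 12 above 0, with a median of 0.17. In that comparison Txnip was at -0.89, Chrna1 at 0.95, Bbc3 at 1.51 and Eda2r at 0.23. Of the listed pathway genes, DESeq2 without a replicate block called Bbc3 alone there. In MOV mimic against MOV control and in sham mimic against sham control neither edgeR nor DESeq2, both without a replicate block, called a gene of these lists.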

How the data were processed

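Total RNA of 20 plantaris muscles was sequenced from NEBNext Ultra II libraries. The authors trimmed reads (Trim Galore 0.6.10, Cutadapt 4.4), aligned them to GRCm38 with HISAT2 2.0.5 and counted them per gene with featureCounts 1.5.0-p3, and deposited raw counts. The annotation release and the strand setting are not given in the sources used here, so reads of overlapping genes (Gm36112 with Fbxo32, Gm38485 with Foxo3, E230016M11Rik with Gadd45a, Gm18258 with Bnip3) could not be told apart. Library totals ran from 12036360 to 23056525 counts, and the depth limits low genes such as Gadd45a most.

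Groups followed the labels. Each comparison was fitted with edgeR 4.0.16 (filterByExpr, TMM, quasi-likelihood F-test, two-sided) on its own 10 libraries, the interaction on all 20, with Benjamini-Hochberg adjustment over all genes tested and a threshold of 0.05. The edgeR procedure was also run on simulated independent libraries. These held no paired muscles and no outlying libraries, so nothing about those features of the data is drawn from that run. Alternatives were DESeq2 1.42.0, limma 3.58.1 voom, other normalisations and filters, a replicate block and leaving out each library. CPM per kb used the union of annotated exons of an older mouse annotation as length. Symbols were found for 32640 of 54532 Ensembl IDs. The members and the lists were chosen with earlier results of these data known. By rule, text names the 10 members and, from other lists, up to 3 called genes per direction, with the 2 most alike genes for each member. Of 196 listed genes, 195 were in the tables and Fbxo31 was not analysed here.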

Additional observations from a re-analysis of the deposited data

Results flagged for a closer look

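A single library lay far from the other 4 of its group in 7 of the 40 groups of 5 CPM values examined (10 genes in 4 groups), by Dixon's ratio of the gap to the range (critical value 0.71). Chance marks about 1 group in 20. Sham mimic library 2 was set apart for 3 genes. It held 87.0 CPM of Sesn3, where the others lay between 22.9 and 37.0, 91.5 CPM of Cdkn1a, where the others lay between 19.7 and 28.6, and 29.3 CPM of Foxo1, where the others lay between 22.1 and 23.4. The same library held 1499.7 CPM of Myh3 and Myh8, whose part in these values was not tested. MOV control library 4 held 130.4 CPM of Sesn3, where the others lay between 75.8 and 84.6. Both MOV libraries numbered 5 had Klf15 values near the sham groups, 36.8 CPM in MOV control, where the others lay between 19.1 and 22.3, and 36.0 CPM in MOV mimic, where the others lay between 18.8 and 23.7. Sham mimic library 4 held 33.4 CPM of Sesn1, where the others lay between 28.7 and 29.3.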

How the results depend on the processing

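For MOV control against sham control, the count of genes called (1 in edgeR) was 913 with DESeq2, 946 with limma voom, 388 with no filter on low counts, 163 with at least 10 counts in total, 722 with DESeq2 and a replicate block, 36 with all 20 libraries in the fit, and 0 to 426 when 1 library was left out. The count of the 10 members called (0) was 4, 4, 3, 3, 3 and 0 under these settings, and 0 to 3 when 1 library was left out. For MOV mimic against sham mimic, 221, 17, 1, 0, 116 and 3 genes were called in the same order and 0 to 101 when 1 library was left out, with the 101 reached without MOV mimic library 5, and no member was called. For MOV mimic against MOV control, DESeq2 called 3 genes, the fit of all 20 libraries 1 gene, and leaving out a library gave 0. For the interaction DESeq2 called 1 gene. The DESeq2 size factors and upper quartile factors in edgeR kept these counts at 1 or 0.

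After the data were seen, libraries of equal number were summed over the viruses, although the labels do not tie a number to a mouse. For MOV against sham 25 genes and 0 members were then called. In this fit of both viruses Foxo1 was at -0.0788 and Foxo3 at -0.0086. They were at 0.15 and 0.043 with the control virus and at -0.30 and -0.059 with the mimic virus. Without both MOV libraries numbered 5, edgeR called 318 genes and 3 members and DESeq2 called 1487 and 5 in MOV control against sham control, and 101 and 0 and 1332 and 1 (Gadd45a) in MOV mimic against sham mimic.

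Equal library numbers were not taken as pairs, so without a block the virus comparisons and the interaction treat the muscles of a mouse as independent. The labels do not tie a number to a mouse, and the correlation of deviations of equal numbers was over 0.1 in 4 of 5 sham and 3 of 5 MOV numbers, with a number matching its own best in 2 and 3 of them. With a replicate block in MOV mimic against MOV control, DESeq2 called 127 genes (0.834% of those tested), among them 2 members, Sesn3 at -0.75 (adjusted p = 0.00439) and Cdkn1a at -0.82 (4.45e-05), and 1 gene of the pathway lists, Cdkn1c at -0.95 (0.000256), as well as the leukocyte markers Ptprc at 1.05 (0.00907) and C1qc at 0.74 (0.0212), whereas edgeR with the block called 0 (Sesn3 0.296, Cdkn1a 0.228). DESeq2 with the block called 5 genes in the interaction and 0 in sham mimic against sham control. A mouse had only 1 kind of surgery, so in comparisons of MOV with sham, the counts above included, the block joins libraries of different mice. In MOV mimic against sham mimic DESeq2 with the block called Irs2 (-0.80, adjusted p = 0.0346) and Txnip (-0.93, 0.0286) of the pathway lists and not Bbc3. In MOV control against sham control it called Dach2 lower (-1.46, 0.0427), as it did the 3 adipocyte markers. Among its other added calls were Myh3 higher (2.44, 0.0466) and Dcn lower (-0.94, 0.0275). Of the genes named above, Gadd45a, Trim54, Sod2, Rbl2, Psmd13, Map1lc3a, Zmat3 and Myh4 were called by DESeq2 without the block and not with it.

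Small differences changed sign. Cdkn1a in sham mimic against sham control (0.054) was -0.14 with voom, -0.0923 with the edgeR block and -0.0854 with the DESeq2 block. Gadd45a in MOV mimic against MOV control (-0.14) was 0.16 with voom and 0.0369 without the MOV libraries numbered 5, and in the interaction (-0.011) it was 0.0004 with DESeq2, 0.43 with voom, 0.0033 with DESeq2 size factors and 0.02 with upper quartile factors. With 1 library left out, the members that changed sign ranged in sham mimic against sham control from -0.0416 to 0.14 (Bnip3), -0.56 to 0.38 (Cdkn1a), -0.11 to 0.15 (Fbxo32), -0.0228 to 0.0584 (Foxo3), -0.33 to 0.0161 (Gadd45a), -0.11 to 0.0271 (Sesn1), -0.13 to 0.43 (Sesn3) and -0.31 to 0.0595 (Trim63). In MOV mimic against sham mimic they ranged from -0.12 to 0.10 (Bnip3), -0.13 to 0.0177 (Foxo3), -0.0171 to 0.11 (Sesn1) and -0.33 to 0.0398 (Trim63), and in MOV mimic against MOV control from -0.41 to 0.18 (Gadd45a), -0.0717 to 0.33 (Klf15) and -0.27 to 0.0252 (Trim63). In MOV control against sham control they ranged from -0.0194 to 0.11 (Foxo3) and -0.30 to 0.0105 (Trim63), and in the interaction from -0.28 to 0.32 (Gadd45a) and -0.19 to 0.19 (Trim63). The causes of these changes were not tested. Sesn3, Cdkn1a, Gadd45a, Fbxo32 and Klf15 kept their direction in MOV control against sham control under every setting run.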
